A study of Homo sapiens with 2 samples.

Results

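The nuclear genome encodes most subunits of the enzymes of oxidative phosphorylation (OXPHOS), and 82 such genes were described in blood-generating heart-forming organoids (BG-HFOs). They were taken from the 36601 genes of the count tables by their symbols alone: NDUFA, NDUFB, NDUFC, NDUFS and NDUFV genes for complex I (37 genes), SDHA to SDHD for complex II (4 genes), UQCR genes for complex III (9 genes), COX4 to COX8 genes that fit the name pattern for complex IV (14 genes), and ATP5F1, ATP5M and ATP5P genes for complex V (18 genes). The pattern used no measured value. Complexes were assigned by symbol as well, so NDUFA4, which is a subunit of complex IV, counts among the complex I genes. It leaves out COX4I1, COX4I2, CYC1, NDUFAB1, NDUFA4L2 and COX7A2L, which are given as a list of their own.

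The single-cell RNA sequencing covered 2 organoids, 32.7 and 33.10, both untreated replicates of 1 condition on day 14 of differentiation. Both came from the human embryonic stem cell line hES3 NKX2.5-eGFP, which carries a fluorescent reporter at a cardiac gene. Aggregates of this line had been embedded in Matrigel, a basement membrane gel, and differentiated by activation and then inhibition of the WNT pathway with added haemato-endothelial growth factors. As both organoids come from 1 line, the spread given below is between organoids and not between donors. Tests therefore compared cell lineages and not treatments.

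Complexes I and II pass electrons from NADH and succinate to ubiquinone, complex III passes them on to cytochrome c, and complex IV (cytochrome c oxidase) to oxygen. Complexes I, III and IV pump protons across the inner mitochondrial membrane, and complex V (ATP synthase) uses the gradient to make ATP. The mitochondrial genome encodes 13 subunits, all of them in complexes I, III, IV and V and set in the membrane, so both genomes must be read to build these enzymes. Heart muscle is known for its dense mitochondria, and several complex IV subunits have a heart and skeletal muscle form beside the common form.

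Nuclear OXPHOS genes are known for promoters with sites of the nuclear respiratory factor NRF1, of ETS factors such as GABP, and of YY1. A RefSeq promoter (GRCh38.p14, from 250 bases before to 50 bases after the start of the gene) was at hand for 66 of the 82 members. The exact palindrome of NRF1, in capitals in the windows below, stood in 4 of these 66 (6.06%) and in 1.36% of all 27305 promoters. With any base at its sixth position (both strands, exact palindromes included), it stood in 17 members (25.8%) against 6.28% of all promoters. The ETS letters CCGGAAGT, on either strand, stood in 10 members (15.2%) against 4.44%, and the YY1 letters AAGATGGC in 11 members (16.7%) against 3.03%. The 4 windows with the exact palindrome are shown because this is the motif by which the family is best known; capitals mark the palindrome, and each window is written 5′ to 3′ on the strand of the gene:
ATP5F1C (chr10:7788145-7788174, plus strand): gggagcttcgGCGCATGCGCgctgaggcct
NDUFA8 (chr9:122159764-122159793, minus strand): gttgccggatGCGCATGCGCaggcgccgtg
NDUFB4 (chr3:120596167-120596196, plus strand): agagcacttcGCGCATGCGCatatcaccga
SDHD (chr11:112086753-112086782, plus strand): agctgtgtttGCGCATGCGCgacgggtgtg

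SDHA, the flavoprotein that oxidizes succinate, held the palindrome with another base at the sixth position 4 times within its promoter. These matches lay at even spacing upstream of the RefSeq start of the gene. They are shown because no other member held as many:
SDHA 1 (chr5:218144-218173, plus strand): ggtccgctttGCGCAGGCGCggcgccccca
SDHA 2 (chr5:218193-218222, plus strand): gtggcatggtGCGCAGGCGCgatgtccccc
SDHA 3 (chr5:218242-218271, plus strand): ccggcgtggtGCGCAGGCGCggtatccccc
SDHA 4 (chr5:218291-218320, plus strand): ccggtgtggtGCGCAGGCGCagtctgcgca
A match of letters is a description of the window and not a shown binding site.

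Cells were gated on unique molecular identifiers (UMIs, 1 per captured RNA molecule) of marker genes that are neither members nor mitochondrial. A cell entered a lineage when its UMIs of that panel reached a minimum and no other panel did. The cardiomyocyte (CM) gate used TNNT2, MYH6, ACTN2, TNNI1 and NKX2-5, and endothelial, mesenchymal, epicardial, erythroid, megakaryocyte, macrophage and granulocyte gates were set likewise. The organoids held 191152562 and 233818881 UMIs in 16866 and 19948 barcodes, 100 of which were shared by the libraries. Of the 16792 and 19893 cells kept, 26.2% and 25.1% reached no gate and 20.8% and 20.6% reached several. Both classes were left out, the latter because such cells can be doublets. Among the latter, 1102 and 745 cells reached both the CM and the mesenchymal gate, against 1282 and 958 cells kept in the mesenchymal gate. Cells in no gate were shallow, with a median of 2253 and 3344.5 UMIs, against 15472 and 17846.5 in several gates. Genes outside the panels went with the gates in most cases: MYL7 stood at 5130 and 4259 CPM (UMIs scaled to a common total per gate and organoid) in the CM gate and at 15.9 to 77.8 CPM in the others, and TTN at 3717 and 3582 CPM against 16.8 to 80.7 CPM. ALDH1A2 was at 9 CPM on average in the epicardial gate and did not mark it, whereas TCF21 did, with 163 CPM. The CM gate also held COL1A1 at 386 and 344 CPM, and the megakaryocyte gate HBE1 at a mean of 4404 CPM and AIF1 at 668 CPM. The foregut endoderm gate held 100 and 13 cells and was not tested.

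The CM gate held the largest share of OXPHOS transcripts of the 8 gates. The 82 genes made up 3.23% of its UMIs in organoid 32.7 and 3.13% in organoid 33.10 (mean 3.18% ± 0.0684, SD, n = 2), from 2191 and 2152 cells. The macrophage gate followed with 2.39% and 2.26%, and the granulocyte gate with 2.26% and 2.35%. The megakaryocyte gate had 2.18% and 2.06%, the erythroid gate 2.13% and 1.99% and the mesenchymal gate 2.06% and 1.95%. The endothelial gate had 1.93% and 1.80% and the epicardial gate 1.82% and 1.73%. The CM gate stood above every other gate in both organoids. Macrophage and granulocyte gates overlapped and changed order between the organoids. The values of the megakaryocyte and erythroid, the erythroid and mesenchymal, and the endothelial and epicardial gates also overlapped across organoids, but within each organoid the former gate of each pair was the higher one. In 7 of the 8 gates the share was lower in organoid 33.10, and the granulocyte gate was the exception.

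**Figure D1:**
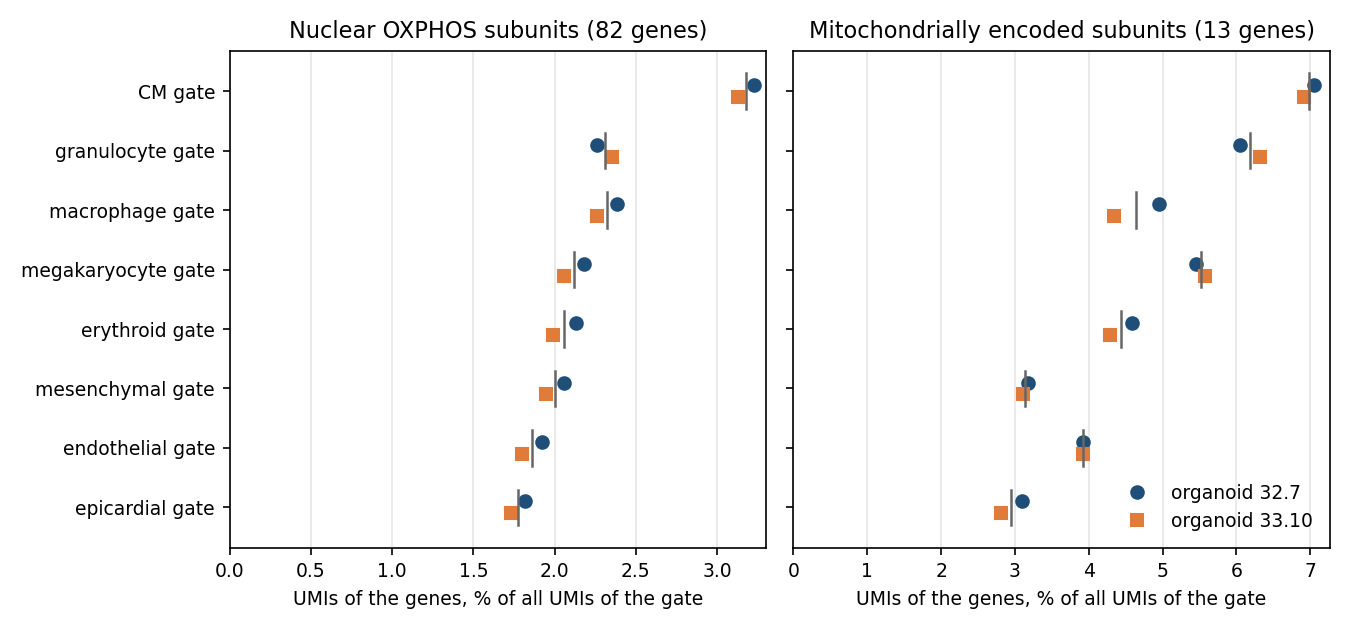
Share of all UMIs of a gate (x axes, percent) taken by the 82 nuclear OXPHOS genes (left) and by the 13 mitochondrially encoded protein genes (right), for 8 lineage gates (y axis). Circles are organoid 32.7, squares organoid 33.10 and bars their mean; the CM gate stands highest in both panels, with 3.23% and 3.13% on the left and 7.05% and 6.91% on the right.

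The 13 mitochondrial protein genes gave another order. They made up 7.05% and 6.91% of the UMIs of the CM gate, 6.04% and 6.32% of the granulocyte gate, 5.45% and 5.58% of the megakaryocyte gate and 4.95% and 4.34% of the macrophage gate. The erythroid gate had 4.59% and 4.29%, the endothelial gate 3.92% and 3.93%, the mesenchymal gate 3.17% and 3.11% and the epicardial gate 3.09% and 2.80%. Per UMI of a nuclear member, there were 2.19 and 2.21 mitochondrial UMIs in the CM gate, 2.04 and 2.18 in the endothelial gate and 1.54 and 1.60 in the mesenchymal gate. The ratio was largest in the granulocyte (2.67 and 2.69) and megakaryocyte gates (2.50 and 2.71). The CM gate was highest for the summed share of both groups of genes, while its ratio (2.20 ± 0.0164, SD, n = 2) lay among those of the other gates. It differed from that of the endothelial gate (2.11 ± 0.103, SD, n = 2) by less than the SD of the latter, but was the higher one within each organoid. By gene, the granulocyte gate had a higher mean than the CM gate for MT-ND1, MT-ND2, MT-ND4L, MT-ATP8, MT-CO2 and MT-ND6. For MT-CO2 and MT-ND6 the organoid values of these gates overlapped. For the rest of the 13 genes the CM gate had the higher mean.

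Single cells of the CM gate spread over a wide range. The median cell held 3.32% and 3.06% of its UMIs in OXPHOS genes, and the 5th to 95th percentiles ran from 1.40% to 6.37% in organoid 32.7 and from 1.5% to 5.77% in organoid 33.10. In the endothelial gate the median was 2.02% and 1.85%, with 5th to 95th percentiles of 1.21% to 3.05% and 1.09% to 2.84%. CM gate cells were shallower, with a median of 6082 and 8310.5 UMIs against 11552.5 and 9569.5 in the endothelial gate, and the share moved with depth. From 500 to 2000 UMIs per cell it was 4.65% and 4.28% in the CM gate, and from 20000 UMIs upwards 3.03% and 2.88%. In the endothelial gate it was 1.66% and 1.57% from 20000 UMIs upwards, and in the mesenchymal gate 1.87% and 1.76%. The CM gate was above both in every depth class that held at least 20 cells of each.

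As a ratio of the CM gate to the endothelial or the mesenchymal gate, complex IV differed most of the 5 complexes. Its 14 genes took 0.712% and 0.684% of the UMIs of the CM gate, against 0.360% and 0.340% in the endothelial gate and 0.378% and 0.360% in the mesenchymal gate. Complex V took 1.06% and 1.03% against 0.603% and 0.556% and 0.655% and 0.611%. Complex I took 1.07% and 1.04% against 0.725% and 0.683% and 0.774% and 0.746%. NDUFA4, counted in complex I by its symbol, had a mean of 1182 CPM in the CM gate. Complex III took 0.358% and 0.346% in the CM gate, against 0.212% and 0.195% in the endothelial gate. For complex II the macrophage gate was highest, with 0.0313% and 0.0316%, against 0.0303% and 0.0282% in the CM gate.

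By gene, 62 of the 82 members had their highest mean level in the CM gate, and in 57 of these both organoids stood above every value of the other gates. The macrophage gate was highest for 9 members (4 without overlap) and the megakaryocyte gate for 5 (2 without overlap). The lowest level fell in the epicardial gate for 29 members, in the megakaryocyte gate for 17, in the erythroid gate for 13 and in the endothelial gate for 12. The same order was not taken over all genes, so these counts have no background. NDUFV2, an iron-sulphur subunit of complex I, was at 517 and 531 CPM in the macrophage gate and at 353 CPM or less in each of the other gates. NDUFB4, an accessory subunit of complex I, was at 360 and 350 CPM in the megakaryocyte gate and at 225 CPM or less in the others. UQCRH, the hinge protein of complex III, was highest in the megakaryocyte (1057 and 972 CPM) and erythroid gates (994 and 1012 CPM), which overlapped.

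**Figure D2:**
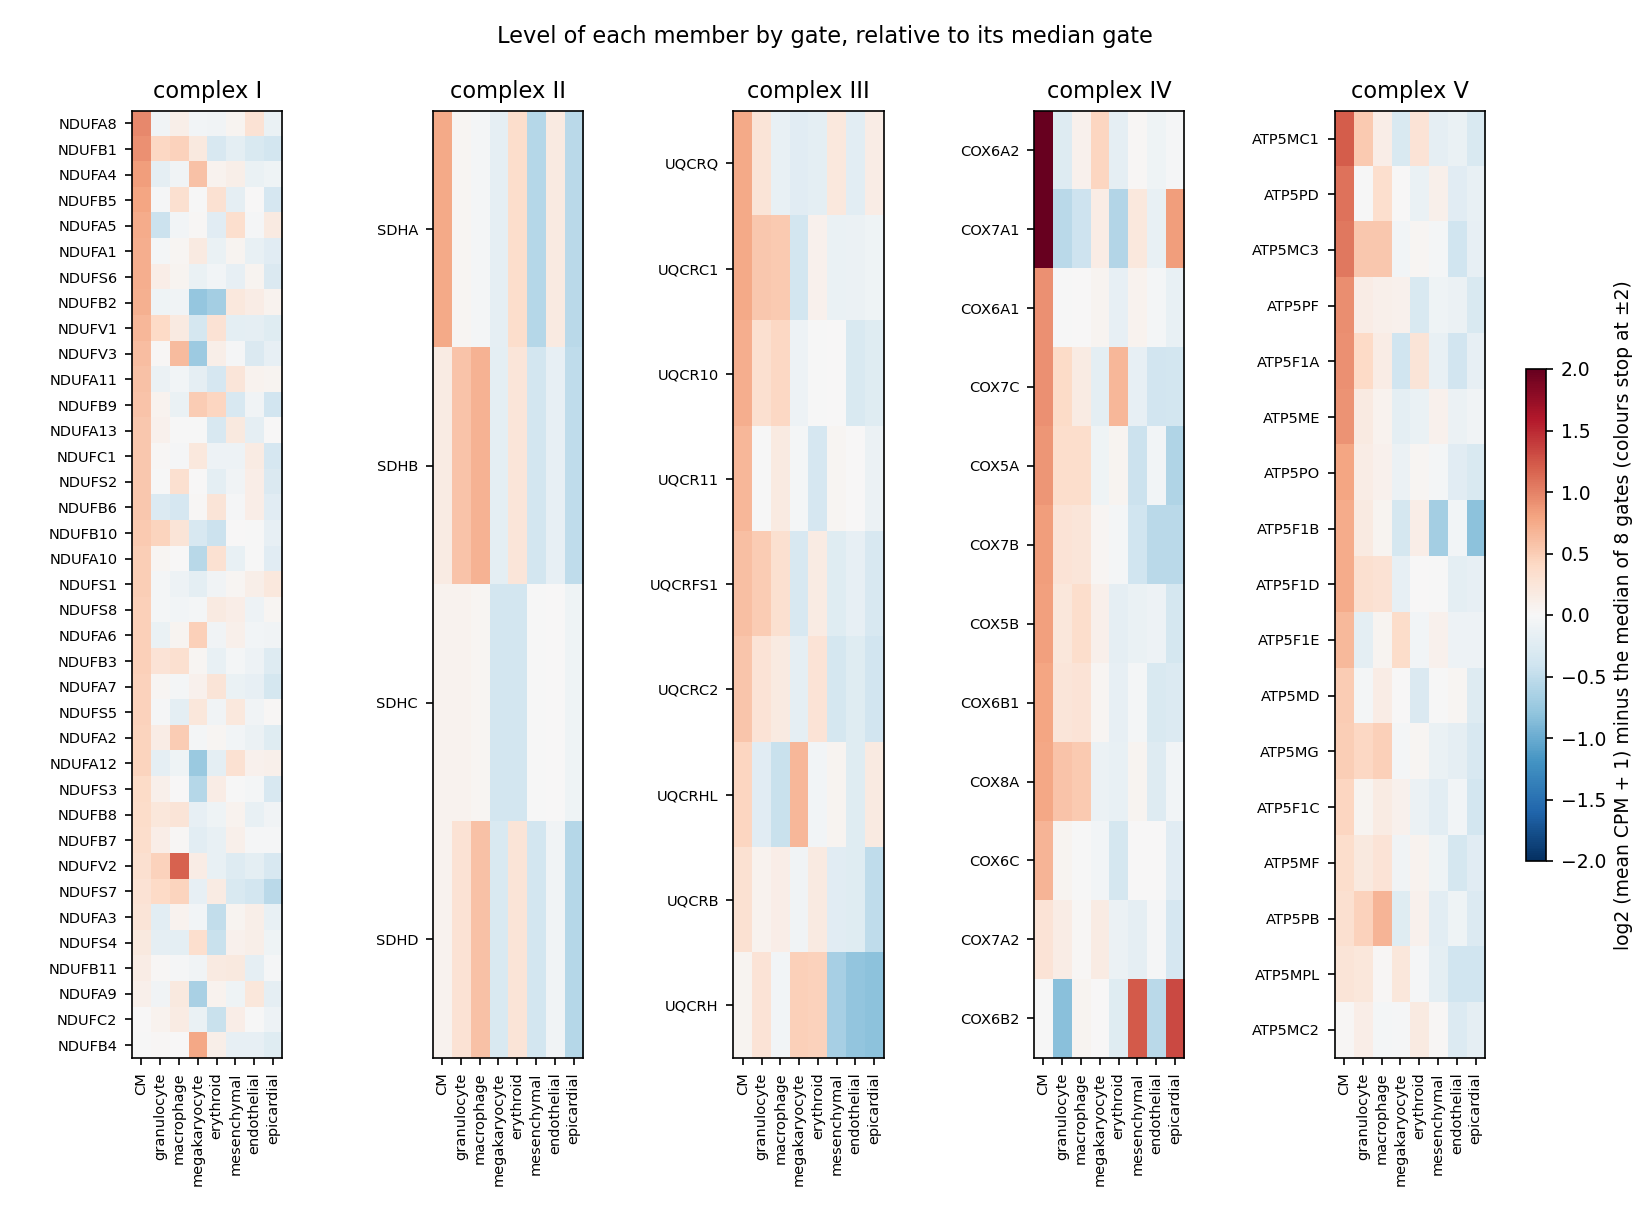
Level of the 79 members that passed the filter on low counts in 8 gates (x axes), by complex (panels) and ordered within each by the CM gate. Colour is log2 of the mean CPM of both organoids plus 1, minus its median over the 8 gates; the CM column is red for most members, COX6A2 and COX7A1 are red there beyond the scale, and NDUFV2, NDUFB4 and COX6B2 have other highest gates.

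For tests, UMIs were summed per organoid and gate and 20306 genes were fitted together in edgeR. All adjusted p-values below come from its quasi-likelihood F test, corrected by the Benjamini-Hochberg method over all these genes. A member is called higher or lower where its adjusted p was under 0.05. Of the 82 members 79 passed the filter on low counts. COX7B2 had 0 to 4 UMIs, COX8C 0 to 6 UMIs and ATP5MGL 0 to 17 UMIs per gate and organoid, and these 3 were not tested.

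In the CM gate, 64 of the 79 members tested were higher than in the mesenchymal gate, 1 was lower and 14 were not called. Over all genes tested 14.5% were higher and 17.2% lower (31.7% in either direction). The median log2 fold change of the members was 0.63, against -0.04 over all genes. Against the endothelial gate, 70 members were higher, none was lower and 9 were not called, where 29.4% of all genes were higher and 27.4% lower (56.9% in either direction). The median was 0.68 against 0.02. Both comparisons share the CM libraries. With organoid 33.10 left out, 33 members were called against the mesenchymal and 46 against the endothelial gate, and with organoid 32.7 left out 46 and 55.

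COX6A2, the heart and skeletal muscle form of complex IV subunit 6A, had the largest fold change in both comparisons. It stood at 102 and 70.4 CPM in the CM gate (1880 and 1540 UMIs), at 0.869 and 0.172 CPM in the mesenchymal gate (13 and 2 UMIs) and at 0.526 and 0.277 CPM in the endothelial gate (19 and 9 UMIs). Its fitted log2 fold change was 7.26 (SE 0.41, adjusted p = 1.65e-08) over the mesenchymal and 7.71 (SE 0.39, adjusted p = 1.74e-09) over the endothelial gate. COX6A2 passed the filter on low counts only through the CM gate, so these p-values are no independent support for the difference. COX7A1, the muscle form of subunit 7A, was at 49.6 and 46.9 CPM in the CM gate, 1.40 and 0.775 CPM in the mesenchymal gate and 0.887 and 0.369 CPM in the endothelial gate. Its log2 fold change was 5.43 (SE 0.37, adjusted p = 1.22e-07) and 6.23 (SE 0.36, adjusted p = 6.6e-09). The low counts outside the CM gate make the size of these folds uncertain. The CM transcript MYL7 was also counted there, at 25.7 and 21.4 CPM in the endothelial and 58.2 CPM in both organoids in the mesenchymal gate, and the part of free RNA in these low counts was not tested.

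These muscle forms stayed a minority beside the common forms. COX6A2 made up 11.4% and 8.38% of the UMIs of COX6A1 and COX6A2 in the CM gate and at most 0.31% in any other gate. COX7A1 made up 7.83% and 7.25% of the UMIs of COX7A1 and COX7A2 in the CM gate and at most 0.68%, in the epicardial gate, elsewhere. The common form COX6A1 was at 797 and 769 CPM in the CM gate and at 446 and 420 CPM in the mesenchymal gate, with a log2 fold change of 0.87 (SE 0.13). COX7A2 differed less, with 0.47 (SE 0.10). COX6A2 lies at chr16:31427731-31428360 and COX7A1 at chr19:36150922-36152449 (GRCh38, GENCODE 44, minus strand).

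**Figure D3:**
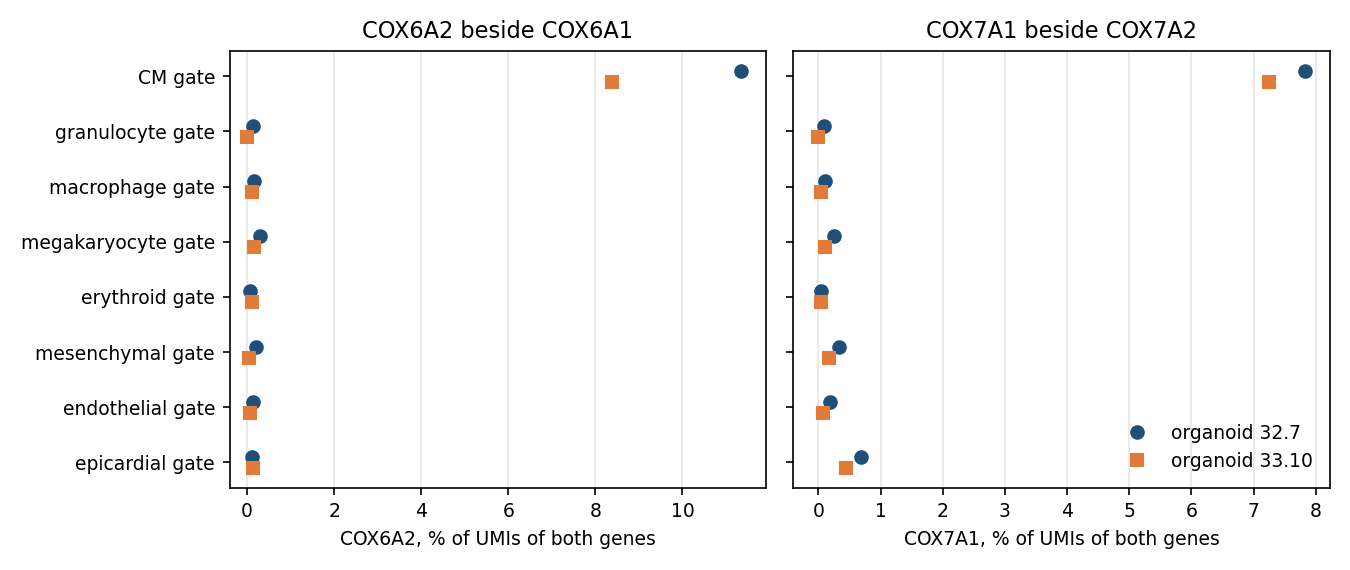
Share of the muscle form in the UMIs of a pair of complex IV genes (x axes, percent): COX6A2 beside COX6A1 (left) and COX7A1 beside COX7A2 (right), for 8 gates (y axis); circles are organoid 32.7 and squares organoid 33.10. The CM gate stands at 11.4% and 8.38% on the left and at 7.83% and 7.25% on the right, and every other gate is below 0.7%.

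COX6B2, a form of subunit 6B best known from testis, was the member that was lower in the CM than in the mesenchymal gate, with a log2 fold change of -2.04 (SE 0.52, adjusted p = 0.00924). It was at 4.08 and 2.33 CPM in the mesenchymal gate (61 and 27 UMIs), 4.28 and 2.66 CPM in the epicardial gate and 0.923 and 0.640 CPM in the CM gate. In the endothelial gate it was lower still, with 0.166 and 0.308 CPM (6 and 10 UMIs). It made up at most 1.00% of the UMIs of COX6B1 and COX6B2 in any gate.

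Of the 6 largest remaining fold changes over the mesenchymal gate, 2 were of ATP synthase genes (ATP5F1B and ATP5MC1). ATP5MC1, which encodes subunit c of the proton-driven rotor ring, was at 457 and 429 CPM in the CM gate and 162 and 176 CPM in the mesenchymal gate (log2 fold change 1.41, SE 0.12, adjusted p = 1.33e-06). The genes ATP5MC1, ATP5MC2 and ATP5MC3 encode the same mature subunit c, and their mix differed: ATP5MC2 made up 26.7% and 25.9% of their UMIs in the CM gate and 44.6% and 43.2% in the endothelial gate. ATP5MC3 made up 52.0% and 52.6% in the CM gate against 38.9% in both organoids in the endothelial gate, and its log2 fold change was 1.47 (SE 0.16, adjusted p = 3.68e-06). ATP5MC2 itself was not called between these gates (0.31, adjusted p = 0.121). ATP5F1B, the catalytic beta subunit, was at 500 and 476 CPM in the CM gate and 190 and 174 CPM in the mesenchymal gate (1.44, SE 0.15, adjusted p = 5.42e-06). ATP5F1A, the alpha subunit, was at 411 and 414 CPM against 168 and 166 CPM in the endothelial gate (1.32, SE 0.12, adjusted p = 3.76e-07), and ATP5PD of the peripheral stalk at 406 and 382 CPM against 164 and 154 CPM (1.33, SE 0.12, adjusted p = 6.43e-07).

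The remaining complex IV subunits were also higher in the CM gate. COX5A was at 483 and 467 CPM against 189 and 190 CPM in the mesenchymal gate (1.34, SE 0.13, adjusted p = 2.37e-06), and COX7B at 802 and 765 CPM against 325 and 339 CPM (1.26, SE 0.13, adjusted p = 5.53e-06). Over the 12 complex IV members tested the median log2 fold change was 0.92 over the mesenchymal and 1.09 over the endothelial gate. It was 0.76 and 0.81 in complex V (17 members tested), 0.74 and 0.86 in complex III (9), and 0.52 and 0.55 in complex I (37). In complex I, 26 and 31 of 37 members were higher and none was lower. NDUFB1, an accessory subunit, was at 489 and 454 CPM against 225 and 212 CPM in the mesenchymal gate (1.13, SE 0.16, adjusted p = 8.12e-05). The members without a call in either comparison were NDUFA3, NDUFA9, NDUFB4, NDUFB11, NDUFC2, NDUFS4, SDHC and ATP5MC2, all but SDHC and ATP5MC2 in complex I.

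**Figure D4:**
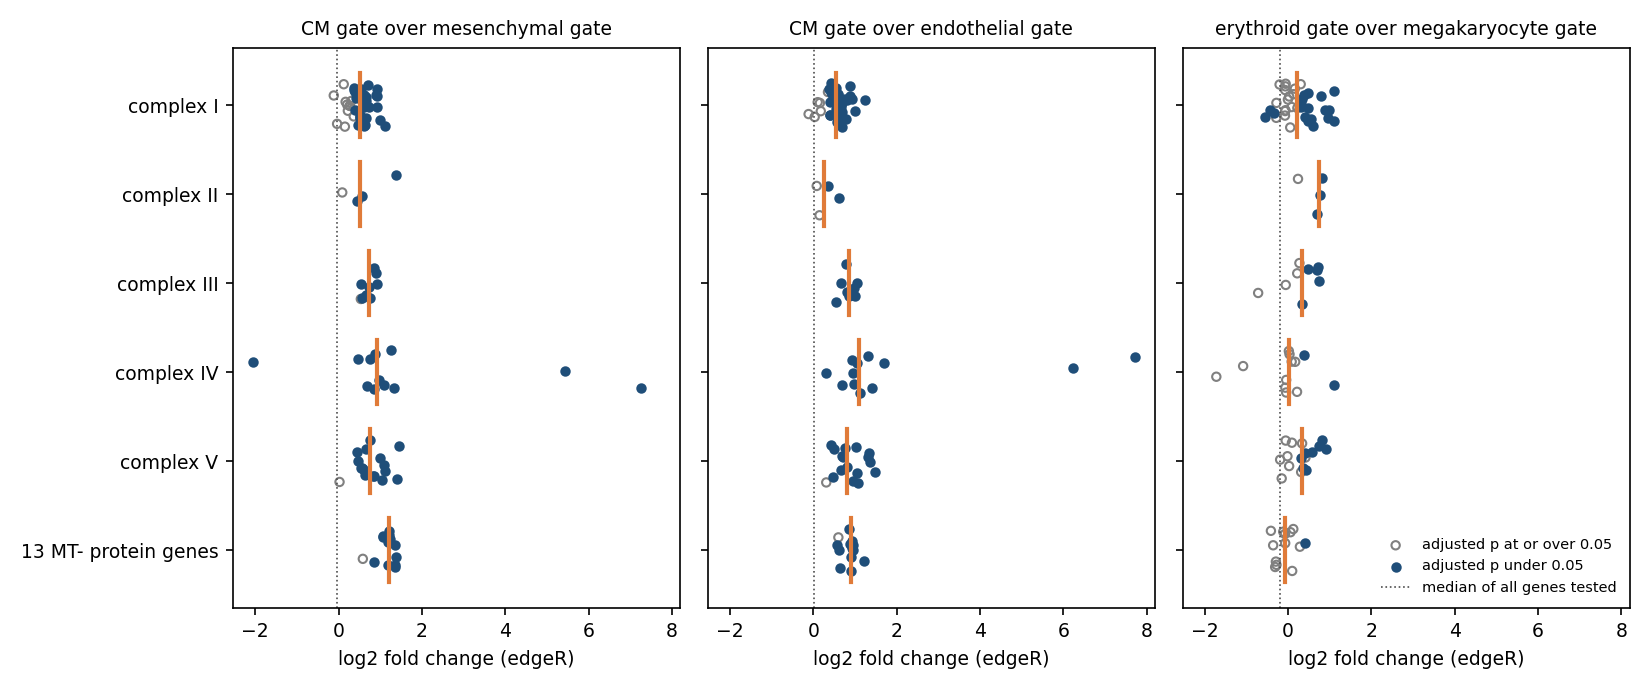
Fitted log2 fold change (x axes) of each member by complex and of the 13 mitochondrial protein genes (y axis) in 3 comparisons (panels). Filled points have an adjusted p under 0.05, orange bars are the median of a row and dotted lines the median of all genes tested; in the CM panels complex IV has medians of 0.92 and 1.09 with COX6A2 and COX7A1 far to the right, and in the erythroid panel the mitochondrial genes have a median of -0.07.

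The 4 subunits of complex II, which is also an enzyme of the tricarboxylic acid cycle and has no mitochondrially encoded part, did not move as 1 group. SDHA was at 81.5 and 69.0 CPM in the CM gate, 52.6 and 46.8 CPM in the endothelial gate and 30.9 and 27.6 CPM in the mesenchymal gate. It was higher in the CM than in the mesenchymal gate by 1.38 (SE 0.16, adjusted p = 1.86e-05) and in the endothelial than in the mesenchymal gate by 0.76 (SE 0.16, adjusted p = 0.00123). SDHC, a membrane anchor, was at 89.1 and 91.9 CPM in the CM gate and 88.4 and 83.6 CPM in the mesenchymal gate (0.09, SE 0.12, adjusted p = 0.605). SDHB, the iron-sulphur subunit, had its highest mean in the macrophage gate with 93.4 and 108 CPM, which overlapped the granulocyte gate (86.7 and 98.9 CPM), and stood at 72.1 and 67.5 CPM in the CM gate. SDHD, the other anchor, was highest in the macrophage gate (84.8 and 79.5 CPM), above the granulocyte gate (71.9 and 62.0 CPM) in both organoids.

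Of the 13 mitochondrial protein genes, 12 were higher in the CM gate in both comparisons, and MT-ND6, the one encoded on the light strand, was not called in either. Their median log2 fold change was 1.21 over the mesenchymal and 0.90 over the endothelial gate. MT-ND4 had 1.35 (adjusted p = 1.09e-06) and 1.22 (adjusted p = 7e-07). Mitochondrial UMIs per cell are also a sign of cell quality. With only cells under 10% mitochondrial UMIs, a filter that acts on these genes themselves, their CM excess was smaller. The mean log2 ratio of their share went from 1.15 to 0.82 over the mesenchymal and from 0.83 to 0.50 over the endothelial gate. The nuclear members called were then 55 and 65 instead of 65 and 70, and the share of all genes called in these cells is not given. The direction of the nuclear members held there, with 1 lower member over the mesenchymal gate and none over the endothelial gate.

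Other lists of mitochondrial genes were less uniform. Of 13 tricarboxylic acid cycle enzymes 10 were higher in the CM than in the mesenchymal gate and none was lower, and of 13 carriers and partners, 12 of which were tested, 9 were higher and none lower. SLC25A4, the ADP/ATP carrier of muscle and heart, was at 404 and 371 CPM in the CM gate against 45.7 and 40.3 CPM (3.19, SE 0.14, adjusted p = 1.51e-09), and CKMT2, the mitochondrial creatine kinase of muscle, at 34.4 and 36.8 CPM against 4.01 and 5.0 CPM (3.01, SE 0.29, adjusted p = 2.85e-06). Of 34 assembly factors, which build the complexes but are not part of them, 11 were higher and none lower, with a median of 0.24. Of 78 mitochondrial ribosomal proteins 10 were higher and 1 lower (12.8% and 1.28%, against 14.5% and 17.2% of all genes), with a median of 0.05. Of the 6 subunits outside the name pattern 3 were higher and 1 lower. COX4I2, the form of subunit 4 known from lung, was the lower one, with 3.64 and 2.38 CPM in the CM and 12.4 and 5.25 CPM in the mesenchymal gate (-1.57, SE 0.41, adjusted p = 0.00973), while its common form COX4I1 was higher (0.72, SE 0.12, adjusted p = 0.000463). Of 82 cytosolic ribosomal proteins tested, which are also short and abundant transcripts, none was higher and 17 were lower (20.7%, against 17.2% of all genes), and over the endothelial gate 3 were higher and 2 lower. Over the endothelial gate, 11 of the 12 carriers and partners tested were higher and none lower. Of the tricarboxylic acid cycle enzymes 10 were higher and 1 lower there. These were 91.7% and 76.9% higher, against 88.6% of members and 29.4% of all genes.

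The regulators of these genes had mixed directions. PPARGC1A, the coactivator PGC-1 alpha, was at 50.6 and 66.6 CPM in the CM gate, 11 and 9.50 CPM in the endothelial gate and 1.74 and 2.67 CPM in the mesenchymal gate, with log2 fold changes of 2.53 (SE 0.21, adjusted p = 1.7e-07) and 4.77 (SE 0.26, adjusted p = 8.87e-09). ESRRG, a nuclear receptor it acts with, was at 541 and 762 CPM in the CM gate, 14.0 and 12.5 CPM in the endothelial gate and 76.9 and 83.6 CPM in the mesenchymal gate. NRF1 was not called in either comparison (0.17, adjusted p = 0.373, over the mesenchymal and -0.19, adjusted p = 0.250, over the endothelial gate). GABPB1, a GABP subunit, was lower in the CM gate in both (-0.57, SE 0.14, adjusted p = 0.00558, and -1.48, SE 0.13, adjusted p = 4.89e-07). TFAM, the mitochondrial transcription factor, was lower than in the endothelial gate (-0.65, SE 0.11, adjusted p = 0.000168). In all, 6 of 13 regulators were higher and 1 lower over the mesenchymal gate (46.2% and 7.69%, against 14.5% and 17.2% of all genes). Over the endothelial gate 5 were higher and 5 lower (38.5% each, against 29.4% and 27.4% of all genes).

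Endothelial and mesenchymal gates were close. The share of the 82 genes was lower in the endothelial gate in both organoids (log2 ratio of the shares -0.10 and -0.12). Of the 79 members 4 were higher and 7 lower, at a background of 21.4% higher and 25.4% lower (46.7% in either direction), with a median log2 fold change of -0.06 against -0.04 over all genes. SDHA, ATP5F1B (0.63, SE 0.14, adjusted p = 0.00246), COX5A and NDUFA9 were higher, and COX6B2 (-3.75, SE 0.57, adjusted p = 0.00013), UQCRQ, NDUFA13, NDUFB11, NDUFA5, ATP5PD and UQCR10 were lower. Since the gates of a pair come from the same organoid, a fit with the organoid as a block was also made, and it called 25 members, 8 higher and 17 lower, and 54.3% of all genes in either direction. With either organoid left out 3 members were called, and DESeq2 called 4 higher and 12 lower. Of the 13 mitochondrial protein genes 5 were higher in the endothelial gate (median 0.29).

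Erythroid and megakaryocyte gates had nearly the same share of OXPHOS UMIs, with log2 ratios of -0.04 and -0.05, but differed by gene. Of the 79 members 34 were higher in the erythroid gate and 3 lower, at a background of 22.4% higher and 27.2% lower (49.6% in either direction), with a median log2 fold change of 0.27 against -0.18 over all genes. The fit scales libraries by the bulk of genes (TMM), while a share counts all UMIs. In the erythroid gate haemoglobin genes took 11.3% and 10.1% of the UMIs and cytosolic ribosomal proteins 27.5% in both organoids, against 2.77% and 2.75%, and 12.8% and 11.3%, in the megakaryocyte gate. Without mitochondrial and haemoglobin genes the log2 ratio of the shares was 0.07. NDUFA10 of complex I was at 110 and 100 CPM in the erythroid and 58.5 and 56.9 CPM in the megakaryocyte gate (1.10, SE 0.12, adjusted p = 3.62e-06), and NDUFV3, a subunit of the NADH-binding module, at 143 and 128 CPM against 74.0 and 75.6 CPM (1.10, SE 0.12, adjusted p = 2.96e-06). COX7C of complex IV was at 1012 and 1099 CPM against 592 and 567 CPM (1.10, SE 0.13, adjusted p = 9.55e-06). NDUFS4, which helps to hold the NADH-binding module in place, was lower (85.9 and 94.1 CPM against 153 and 158 CPM; -0.55, SE 0.12, adjusted p = 0.00128), as were NDUFB4 and NDUFA6.

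Other measures moved with the erythroid comparison. Cycling cells made up 64.1% and 48.7% of the erythroid and 18.7% and 14.4% of the megakaryocyte gate, and with non-cycling cells only 17 members were higher and 9 lower (median 0.03). Megakaryocyte gate cells held a median of 4823 and 5682.5 UMIs against 15209.5 and 10755. The nuclear RNAs MALAT1 and NEAT1 took 4.63% and 4.68% of the UMIs of the megakaryocyte gate, against 1.66% and 1.93%. In cells with at least 5000 UMIs 33 members were higher and 2 lower, and the part of nuclear RNA in the result was not tested. The share of all genes called in non-cycling cells and at this depth is not given, so these counts have no background. With either organoid left out of these 2 gates fewer members were called. Of 78 mitochondrial ribosomal proteins 60 were higher in the erythroid gate and none lower, and of 82 cytosolic ribosomal proteins 79 were higher, while of the 13 mitochondrial protein genes only MT-CO3 was called (0.41, adjusted p = 0.0273), and in non-cycling cells its value was -0.30 with no call.

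Between the macrophage and the megakaryocyte gate 23 members were higher and 10 lower, at a background of 24.5% higher and 24.1% lower (48.7% in either direction), with a median of 0.12 against -0.07. With the size factors of DESeq2 in place of TMM the split was 17 higher and 13 lower. Fewer members were called with either organoid left out of these 2 gates. Cycling cells made up 45.3% and 49.0% of the macrophage gate, its cells held a median of 11587 and 13235 UMIs, and MALAT1 and NEAT1 took 0.970% and 1.03% of its UMIs, against the values of the megakaryocyte gate given above. In non-cycling cells 17 members were higher and 13 lower, and in cells with at least 5000 UMIs 22 and 10. Counts under these alternative settings have no background, as the share of all genes called is not given for them. The part of nuclear RNA was not tested here either. NDUFV3 was at 185 and 201 CPM against 74.0 and 75.6 CPM (1.25, SE 0.12, adjusted p = 7.61e-07), and NDUFV2 at 517 and 531 CPM against 255 and 260 CPM (0.91, SE 0.12, adjusted p = 2.59e-05). ATP5PB of the peripheral stalk was at 202 and 223 CPM against 106 and 117 CPM (0.81, SE 0.10, adjusted p = 1.45e-05), and SDHB and SDHD were higher by 0.78 and 0.80. NDUFB4 (-0.88, SE 0.14, adjusted p = 9.06e-05), NDUFA4 (-0.76, SE 0.11, adjusted p = 8.09e-05) and UQCRH (-0.65, SE 0.12, adjusted p = 0.000399) were lower in the macrophage gate. UQCRHL had the lowest value (-1.70, adjusted p = 0.00344), on 11 and 4 UMIs in the macrophage gate, and is uncertain because it is a near-identical copy of UQCRH. Of the mitochondrial protein genes 7 were lower in the macrophage gate and none was higher, with a median of -0.39.

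Cycling cells (at least 3 UMIs of MKI67, TOP2A, CENPF, TYMS, RRM2 and UBE2C together) were compared with cells that had none, in 1 fit over 7 lineages and 17774 genes. Of the 79 members 10 were higher and 11 lower in cycling cells, at a background of 15.8% higher and 18.3% lower (34.1% in either direction). ATP5MC1 was higher by 0.50 (SE 0.11, adjusted p = 0.0011). COX7A1 and COX6A2, the muscle forms, were lower by -1.15 (SE 0.25, adjusted p = 0.000909) and -0.88 (SE 0.26, adjusted p = 0.00914) on the log2 scale. Both values rest mostly on the CM gate. It held 1880 and 1540 COX6A2 UMIs, and any other gate at most 19 per organoid. For COX7A1 it held 914 and 1026 UMIs, and any other gate at most 32. Within the CM gate COX7A1 was called and COX6A2 was not, so the COX6A2 call holds for the fit over 7 lineages only. With either organoid left out 2 members were called, and with DESeq2 size factors 3 were higher and 25 lower. The share of all genes called under these settings is not given, so these counts have no background. Of 78 mitochondrial ribosomal proteins 40 were higher in cycling cells and none lower.

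Lineages differed in this comparison. In the CM gate the share of the 82 genes was 2.86% and 2.82% in cycling and 3.34% and 3.23% in non-cycling cells. In the megakaryocyte gate it was 2.51% and 2.32% in cycling and 1.95% and 1.93% in non-cycling cells, and in the erythroid gate 2.18% and 2.05% against 1.91% and 1.81%. In the endothelial gate it was 1.88% and 1.76% against 1.94% and 1.83%. Within the CM gate COX7A1 was the 1 member called, as lower (-1.19, SE 0.30, adjusted p = 0.0165), where 5.11% of all genes were higher and 1.45% lower (6.56% in either direction), and a fit with the organoid as a block called 32 members, all lower, and 12.3% of all genes in either direction. Within the megakaryocyte gate 19 members were higher and 5 lower (13.6% and 14% of all genes, 27.5% in either direction), and within the erythroid gate 21 were higher and 1 lower (13.7% and 11.6%, 25.3% in either direction). Within the macrophage gate 6 were higher and none lower (9.53% and 5.55% of all genes, 15.1% in either direction). The block gave 40 calls in the erythroid gate (34 higher, 6 lower, 29.7% of all genes in either direction) and 21 in the macrophage gate (15 higher, 6 lower, 18.9%). With DESeq2 size factors in place of TMM the splits were 12 higher and 5 lower in the erythroid gate, 13 and 7 in the megakaryocyte gate and 2 and 7 in the macrophage gate, where the direction turned and the median of all genes tested went from 0.01 to -0.14. Within the endothelial gate edgeR called none of the 79 (4.85% and 1.09% of all genes, 5.94% in either direction), with 7 members at an unadjusted p under 0.05. None was called within the epicardial gate (4.89% and 1.52%, 6.41% in either direction; 6 members at an unadjusted p under 0.05) or the mesenchymal gate (5.23% and 1.51%, 6.74% in either direction; 3 members). With the block these gates gave 11, 4 and 7 calls, at 13%, 9.09% and 11.2% of all genes. The difference of the cycling effects, CM minus megakaryocyte, was below 0 for 14 members and above 0 for none (4.53% and 5.79% of all genes, 10.3% in either direction), and with the block it was below 0 for 40 and above 0 for 1, with 16.5% of all genes called in either direction. This contrast was chosen after the shares were seen, between the gates with the lowest and the highest ratio of the shares, so its direction is no independent evidence. ATP5MC1 (-1.13, SE 0.18, adjusted p = 0.000358) and ATP5MC3 (-1.04, SE 0.23, adjusted p = 0.00442) had the largest such differences. Cycling cells were deeper, with a median of 8340 and 13299.5 UMIs against 5183.5 and 7120.5 in the CM gate and of 11102.5 and 11233 against 3683.5 and 4753 in the megakaryocyte gate.

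**Figure D5:**
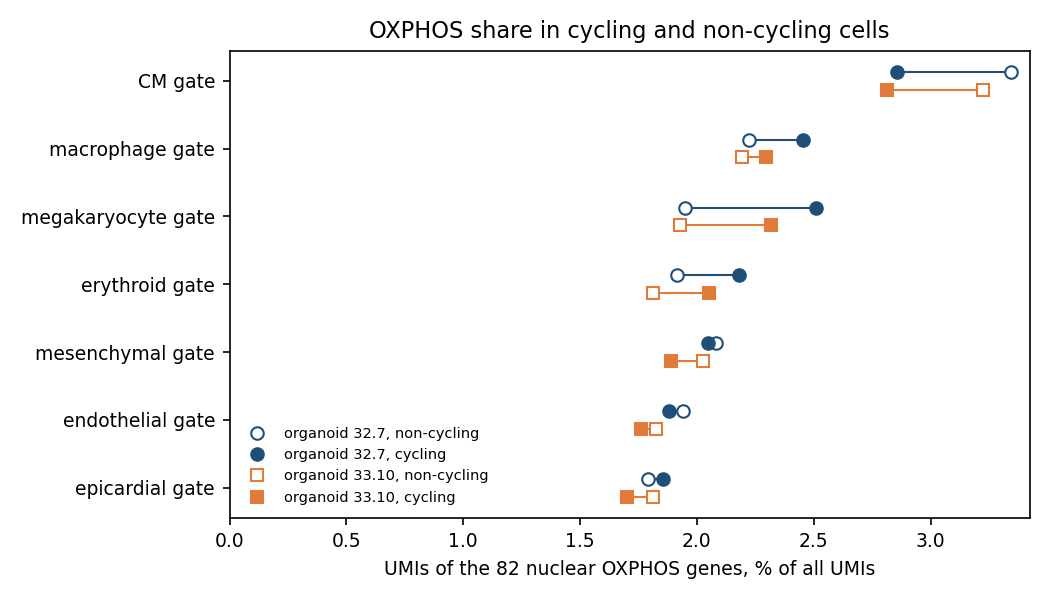
Share of all UMIs (x axis, percent) taken by the 82 nuclear OXPHOS genes in cycling (filled) and non-cycling cells (open) of 7 gates (y axis), with a line between both states of an organoid; circles are organoid 32.7 and squares organoid 33.10. The cycling cells lie to the left in the CM gate (2.86% and 2.82% against 3.34% and 3.23%) and to the right in the megakaryocyte, erythroid and macrophage gates.

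The organoids differed by more than 2-fold in some gate for COX6A2, COX7A1, COX6B2, ATP5MGL, COX7B2 and COX8C. The largest UMI count of an organoid among these cases was 32, for COX7A1 in the endothelial gate, against 12 in the other organoid, so they lie where counting error is large.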

How the data were processed

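The deposited counts are the output of Cell Ranger 7.0.0, which the authors ran on libraries of the 3′ end of transcripts, against GRCh38 with intronic reads included. They are whole UMIs per gene and barcode, with no normalization and before the removal of free RNA and the cell filter of the study. A UMI is counted once per molecule, so levels do not scale with transcript length.

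Members and lists were chosen with earlier results of these data known. Cells with 50 to 11000 genes and under 30% mitochondrial UMIs were kept and gated on raw UMIs. The minimum was 10 for the CM, erythroid and granulocyte gates, 5 for the endothelial, mesenchymal and macrophage gates, 3 for the epicardial and 20 for the megakaryocyte and foregut endoderm gates, and a cell of both the epicardial and the mesenchymal gate counted as epicardial. No doublet caller was run. Counts summed per organoid and gate (at least 20 cells in each organoid) were tested with edgeR 4.0.16 in R 4.3.3 (filterByExpr, TMM, quasi-likelihood F test, Benjamini-Hochberg over all genes, threshold 0.05). The SE is the size of the log2 fold change over the square root of F. With 2 organoids, p-values measure only their spread. Python 3.11.15 made the sums. Depth was 191152562 and 233818881 UMIs.

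Tested on simulated data of 20306 genes, 100 of them changed at each size, the test recovered 49 to 58 genes at a log2 fold change of 1 and 77 to 91 at 2 in the 5 lineage comparisons, and unchanged genes made up 2.17% to 8.13% of the calls. For the cycling comparison (17774 genes) it recovered 89 and 98. Apart from the changed genes, the simulated libraries shared 1 base profile and were drawn independently. In the real lineage comparisons 31.7% to 56.9% of all genes were called. The rates under such wide differences or under correlated gates were not tested. Gates of an organoid are paired by origin, and the correlation of their deviations ran from -0.01 to 0.36. The block fit is given where it changed a count by over 1.5 times.

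Members named with full values were, per comparison, up to 8 called at each end whose organoid values did not overlap, the paralog sets, complex II, the mitochondrial protein genes and those that differed by over 2-fold between organoids. For the cycling comparison the overlap was not checked. Others named in the text (NDUFV2, NDUFB4 and UQCRH in the macrophage and megakaryocyte gates, members without a call, and list genes such as PPARGC1A) were chosen after their values were seen, as were the fit of the cycling effect within each gate, its contrast of CM and megakaryocyte gates and a CM gate without TNNI1. That gate kept CM gate cells with at least 10 UMIs of its other genes and 3 TTN UMIs. Gene positions are from GENCODE 44 and promoters from RefSeq, the first start listed per gene. Alternatives were DESeq2 1.42.0, its size factors, no filter, the block, each organoid left out and other gate minima. Further ones used cells with at least 5000 UMIs, cells under 10% mitochondrial UMIs or non-cycling cells. The last were subtraction of 10% of the pooled profile, and no mitochondrial or haemoglobin genes. In the lineage comparisons an organoid was left out of the 2 compared gates only.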

Additional observations from a re-analysis of the deposited data

Results flagged for a closer look

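The share of OXPHOS UMIs in cycling against non-cycling cells was flagged in 6 gates, because both organoids moved one way in some gates and the opposite way in others. The mean log2 ratio of the shares was 0.314 in the megakaryocyte gate, 0.185 in the erythroid gate and 0.105 in the macrophage gate. It was -0.211 in the CM gate, -0.0641 in the mesenchymal gate and -0.0484 in the endothelial gate. In the epicardial gate the organoids went opposite ways (mean -0.0208). The difference between the CM and the megakaryocyte gate was tested gene by gene with edgeR's quasi-likelihood test, which called 14 members, all below 0. These gates were picked after the ratios were seen, as the lowest and the highest, so the direction restates the ratios. The differences between other gates were not tested. Cycling cells are also the deeper cells in both gates, and the part of depth in the ratios was not tested.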

How the results depend on the processing

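Leaving out 1 organoid in turn left 33 to 46 members called in the CM gate over the mesenchymal gate, 46 to 55 over the endothelial gate, 3 in each case between endothelial and mesenchymal gates, 17 to 20 between erythroid and megakaryocyte gates, 17 to 21 between macrophage and megakaryocyte gates and 2 in each case for cycling cells; a gate with 1 library is then assumed to vary like the others. The block fit called 25 members between endothelial and mesenchymal gates, and for cycling cells 32 within the CM gate, 11 within the endothelial, 4 within the epicardial, 40 within the erythroid, 21 within the macrophage and 7 within the mesenchymal gate, and 41 for the CM minus megakaryocyte difference (instead of 1, 0, 0, 22, 6, 0 and 14). The other paired counts stayed within 1.5 times. Subtraction of 10% of the pooled profile gave 18 calls between endothelial and mesenchymal gates, and DESeq2 size factors 4 within the CM gate for cycling cells. Within single gates no organoid could be left out, since no residual degree of freedom remains. The share of all genes called is given for the main fits and the block only, so member counts under other settings have no background here.

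The mean log2 ratio of OXPHOS shares over both organoids kept its sign in every setting but 1. For the CM over the mesenchymal gate (0.666) it was 0.578 in cells under 10% mitochondrial UMIs. It was 0.715 without TNNI1 in the gate but with at least 3 TTN UMIs, and 0.732 after subtraction of the pooled profile. Without mitochondrial and haemoglobin genes it was 0.725. Over the endothelial gate (0.772) these values were 0.686, 0.821, 0.853 and 0.820. Endothelial over mesenchymal (-0.106) gave -0.0822 with doubled gate minima and -0.126 in non-cycling cells. Erythroid over megakaryocyte (-0.0424) gave -0.00546 with gate minima times 0.5 (0.00497 in organoid 32.7 and -0.0159 in organoid 33.10), -0.0590 in non-cycling cells, -0.0532 after subtraction and, reversed, 0.0699 without mitochondrial and haemoglobin genes. Macrophage over megakaryocyte (0.132) gave 0.116 with doubled and 0.171 with lower gate minima, 0.126 in cells with at least 5000 UMIs, 0.139 under 10% mitochondrial UMIs, 0.187 in non-cycling cells, 0.140 after subtraction and 0.0769 without mitochondrial and haemoglobin genes. In non-cycling cells ATP5MC1 (-0.0748) and MT-CO3 (-0.299) reversed between erythroid and megakaryocyte gates, with no call. The cause of these changes was not tested.

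With 2 organoids of 1 line, gates that leave out many cells and free RNA not removed, small differences are not resolved. Without TNNI1 in its panel and with at least 3 TTN UMIs required, the CM gate kept 1640 and 1661 of its 2191 and 2152 cells. This narrower gate gave 65 and 69 calls.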
